A study of Mus musculus with 8 samples.

Results

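The 6 libraries described here are those of primary peritoneal mast cells (PMCs), out of 8 libraries in the series. They were chosen by their labels, which name them as primary wild-type (WT) cells, 3 from female and 3 from male mice of the mixed strain C57BL/6x129/Sv. Mast cells of the peritoneal cavity were grown in medium with serum, IL-3 and SCF, were left untreated, and their total RNA was made into stranded libraries. The cells had thus been expanded in culture and were not taken fresh from the peritoneum. The labels call the samples biological replicates but tie none of them to an animal, a litter, a day or a batch, so spread between the libraries is spread between 6 cultures and any p-value measures only that. The cultures are called female 1 to 3 and male 1 to 3 here.

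Mast cells are long-lived cells of myeloid origin that store proteases, biogenic amines and the proteoglycan serglycin in secretory granules. Antigen that cross-links IgE on the high-affinity receptor FcεRI empties these granules and starts the synthesis of leukotrienes, prostaglandins and cytokines, while SCF, through its receptor KIT, keeps the cells alive. Mast cells of connective tissue and of the peritoneum are known for carboxypeptidase A3, chymases and tryptases bound to heparin.

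The libraries held between 15918757 and 24180226 estimated counts. CPM, counts scaled to the size of the library, were used for comparing a gene between cultures. TPM, which are also divided by transcript length, were used for comparing genes with each other. Where a gene had 0 counts, its level may still reach that of 3 counts, or 0.129 to 0.183 CPM by culture, by counting error alone. Between 10530 and 10687 nuclear protein-coding genes reached 1 CPM in a culture. Of all 21614 such genes, the means of 10707 reached 1 CPM and those of 8175 reached 10 CPM. These counts are the background for the gene lists below. All 5 mast cell markers were abundant in all 6 cultures. In order of mean TPM ± SD (n = 6) they were Cpa3, carboxypeptidase A3, at 22537 ± 4465, Cma1, a chymase, at 11405 ± 3036, Tpsb2, a tryptase, at 6399 ± 2966, Fcer1a, the IgE-binding chain of FcεRI, at 5583 ± 730, and Kit, the receptor for SCF, at 827 ± 114. No marker of the labelled cell type was absent from any culture.

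The starts of these marker genes are shown because their transcripts were abundant in every culture. The sequences are the 250 bases before the annotated start, from RefSeq on GRCm38.p6, 5′ to 3′ on the strand of the gene. Capitals mark a GATA motif, searched as AGATAA or TGATAA on both strands, because Gata2 and Gata1 are among the regulators described below. Cpa3 lies at chr3:20242182-20242431 on the minus strand, Cma1 at chr14:55944676-55944925 on the minus strand, Fcer1a at chr1:173227230-173227479 on the minus strand and Kit at chr5:75574737-75574986 on the plus strand. Tpsb2 is named only.
Cpa3: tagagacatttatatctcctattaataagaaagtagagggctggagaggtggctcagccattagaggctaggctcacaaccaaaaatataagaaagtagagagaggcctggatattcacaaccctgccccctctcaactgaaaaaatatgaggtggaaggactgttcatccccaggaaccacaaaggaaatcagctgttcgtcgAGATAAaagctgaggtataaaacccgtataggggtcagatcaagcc
Cma1: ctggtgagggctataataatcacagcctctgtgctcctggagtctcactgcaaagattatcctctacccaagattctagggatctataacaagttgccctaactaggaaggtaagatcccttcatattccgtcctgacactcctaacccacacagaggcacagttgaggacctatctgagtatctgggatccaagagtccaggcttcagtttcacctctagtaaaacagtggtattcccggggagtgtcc
Fcer1a: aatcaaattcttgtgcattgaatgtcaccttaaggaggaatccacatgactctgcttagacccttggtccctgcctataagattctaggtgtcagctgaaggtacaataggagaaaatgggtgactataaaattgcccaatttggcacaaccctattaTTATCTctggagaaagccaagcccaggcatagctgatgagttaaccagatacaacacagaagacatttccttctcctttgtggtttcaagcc
Kit: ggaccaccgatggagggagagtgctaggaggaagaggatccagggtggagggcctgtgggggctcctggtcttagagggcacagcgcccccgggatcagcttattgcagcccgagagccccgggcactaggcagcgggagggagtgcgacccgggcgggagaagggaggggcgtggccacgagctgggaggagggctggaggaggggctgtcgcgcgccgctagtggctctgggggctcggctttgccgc
Cpa3 held 1 match, which begins at position -46 from the start. Fcer1a held 1, at position -92 and on the opposite strand, while the windows of Cma1 and Kit held 0. Other forms of the GATA motif were not searched, and of 2 annotated starts of Kit 1 is shown. Of 32851 promoter windows from the same source, 5452 held such a match, which is 16.6%. A match is a description of letters and no binding was measured.

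Messenger RNA of nuclear genes made up less of the TPM than of the counts, because short structured RNAs weigh heavily once values are divided by length. Nuclear protein-coding genes held 49.1% ± 4.92 (SD, n = 6) of TPM but 84.3% ± 1.58 of the counts. 7SL RNA, the RNA of the signal recognition particle, held 21.2% ± 4.36 of TPM from a few near-identical gene copies, among which reads cannot be assigned with certainty. 7SK RNA, a regulator of transcription elongation, held 10.1% ± 1.05 of TPM in a single gene, Rn7sk. The next most abundant of these RNAs were Rpph1, the RNA of RNase P, and Rmrp, the RNA of RNase MRP. Mitochondrial protein-coding genes held 2.50% ± 0.516 of TPM and mitochondrial ribosomal RNA 2.17% ± 0.70, with mt-Rnr2 and mt-Co1 in the lead at 19044 ± 6073 and 9366 ± 2142 TPM. Male 3 stood apart with 29.5% of its TPM in 7SL RNA, where the other cultures had between 17.3% and 21.5%, and with 40.3% in nuclear protein-coding genes. TPM of nuclear genes in male 3 thus rest on a smaller share, so sums over groups of genes are also given as a share of nuclear protein-coding TPM.

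**Figure D1:**
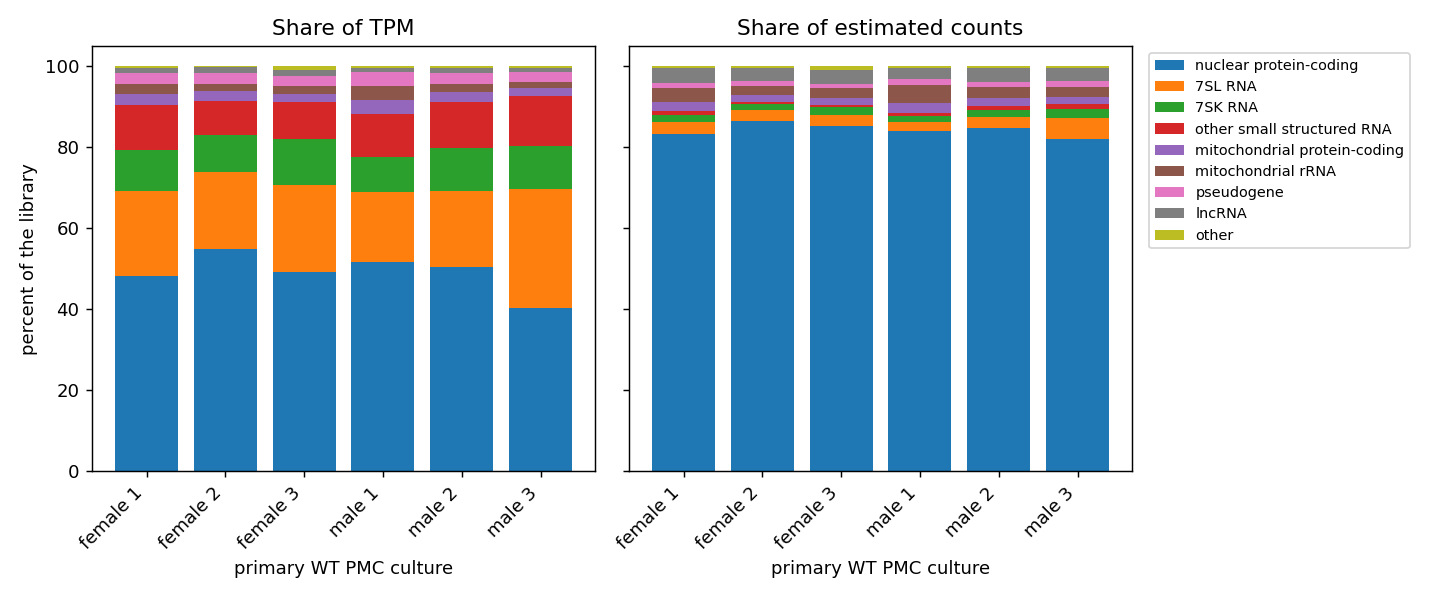
Stacked bars give the percentage of TPM (left) and of estimated counts (right) in each class of RNA for each of the 6 primary WT PMC cultures. Nuclear protein-coding genes take 49.1% of TPM and 84.3% of counts on average, and male 3 has the tallest 7SL RNA segment, 29.5% of its TPM.

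The most abundant messenger RNAs were those of granule proteases, which held a small part of the total. Cpa3 alone held 2.25% ± 0.446 (SD, n = 6) of all TPM and 4.57% ± 0.597 of nuclear protein-coding TPM. The 10 most abundant nuclear protein-coding genes together held 7.35% ± 1.29 of all TPM, 14.9% ± 1.67 of nuclear protein-coding TPM and 8.06% ± 1.04 of the counts. On average 308 genes, between 243 and 373 by culture, were enough to hold 50% of nuclear protein-coding TPM, and the 500 most abundant held 56.3% ± 1.70. A mean of 1000 TPM was passed by 51 genes and a mean of 100 TPM by 672.

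Among the 20 most abundant genes, 3 encode granule proteases, 4 receptors or other immune surface proteins and 1 an amine enzyme. Cpa3 (chr3:20269774-20296362 in GRCm39) had TPM from 18068 in female 3 over a median of 22808 to 30251 in female 2. Cma1 (chr14:56178908-56182132) had TPM from 9398 in female 3 over a median of 10246 to 17418 in female 2. Both proteases were highest in female 2, where the 10 leading genes took 9.85% of TPM against between 6.33% and 7.36% in the other cultures. Tpsb2 (chr17:25585170-25588079) had one of the widest ranges of the 20, from 3121 TPM in male 1 over a median of 6233 to 10534 in female 2. The tryptase genes Tpsb2 and Tpsab1 are near copies, and Tpsab1 was listed at 3.27 ± 1.86 TPM, so how reads were split between them is uncertain. Fcer1a (chr1:173048851-173054781) had TPM from 4825 in male 3 over a median of 5516 to 6475 in male 2. All these ranges are in TPM, which also vary with each culture's nuclear protein-coding share, from 40.3% in male 3 to 54.8% in female 2. The order of cultures may thus differ in CPM. Tph1, the enzyme that starts serotonin synthesis, had a mean of 3436 ± 656 TPM and Srgn, the core protein serglycin, 2525 ± 507 TPM.

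The others of the 20 are mostly genes that many cells use. Ftl1, the ferritin light chain, had 9517 ± 2096 TPM and ranked between Cma1 and Tpsb2. Eef1a1, a translation elongation factor, Tmsb4x and Actb, both of the actin system, and Tpt1 had mean TPM of 5757, 3239, 3142 and 2282. The ribosomal protein genes Rplp1, Rpl10, Rpl13a and Rpl41 had between 1828 and 2178 TPM. Ctsd, the lysosomal protease cathepsin D, had 2125 ± 468 TPM. Ctla2a, an inhibitor of cysteine proteases, had 2525 ± 1128 TPM and ranged from 1355 in female 3 to 4572 in female 2, a range about as wide as that of Tpsb2. Ly6a, known as Sca-1, had 2246 ± 539 TPM, Il1rl1, the IL-33 receptor ST2, 2195 ± 354 TPM, and Lilrb4a, an inhibitory receptor, 1850 ± 335 TPM.

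**Figure D2:**
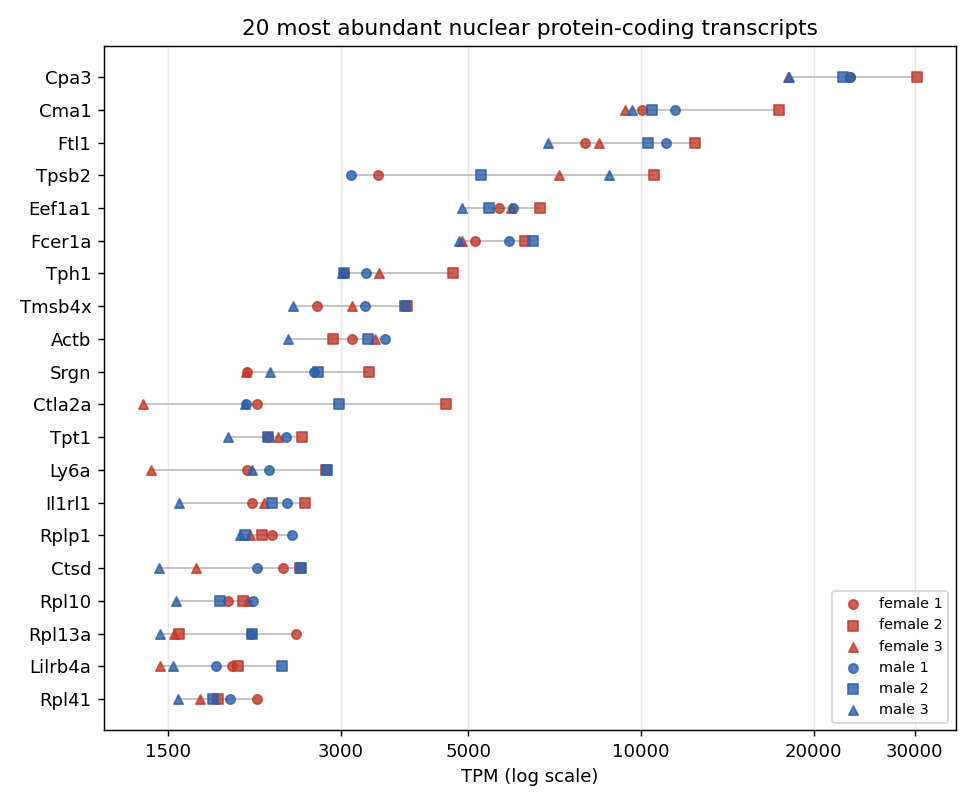
Points give the TPM (log axis) of the 20 most abundant nuclear protein-coding genes in the 6 cultures, in order of their mean, and grey lines join the lowest and the highest culture. Cpa3 leads in every culture, between 18068 and 30251 TPM, and Tpsb2 and Ctla2a have the widest ranges.

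The granule proteases as a group held 8.54% ± 1.40 (SD, n = 6) of nuclear protein-coding TPM, more than any other functional list examined. Of 23 proteases listed, 12 reached a mean of 1 CPM and 8 a mean of 10 CPM, while Gzma, Gzmg, Gzmk and Gzmn had 0 counts in all cultures. As parts of the list, both counts lay near the background of all nuclear protein-coding genes. Behind Cpa3, Cma1 and Tpsb2 came Gzmb, granzyme B, at 481 ± 131 TPM and Ctsg, cathepsin G, at 401 ± 153 TPM. Female 2 had the largest share of nuclear protein-coding TPM in proteases, 11.0%, and female 3 the smallest, 7.41%. At lower ranks, Tpsg1, a tryptase anchored in the membrane, had 369 ± 234 TPM, Mcpt4, a chymase, 245 ± 181 TPM and Mcpt2, another chymase, 118 ± 53.6 TPM. These 3 genes were singled out after their values were seen. The chymase and granzyme genes are a family of similar sequences, so levels of neighbours in it are uncertain where reads match more than 1 copy.

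The IgE receptor was abundant in all of its chains. Fcer1a led, followed by Ms4a2, the beta chain, at 1191 ± 186 TPM and Fcer1g, the signalling gamma chain, at 336 ± 67.1 TPM. Among IgG receptors, Fcgr3, an activating one that shares the gamma chain, had 125 ± 14.3 TPM and Fcgr2b, the inhibitory one, 31.2 ± 3.4 TPM. Of 10 Fc receptor genes listed, 5 reached a mean of 10 CPM. Downstream of the receptor, all 19 adaptors listed reached 10 CPM, led by Lat2 at 724 ± 92.7 TPM, Lat at 244 ± 47.8 TPM and Lcp2 at 180 ± 20.1 TPM, which are scaffolds that collect signalling proteins at the membrane. Grb2 and Vav1, which link receptors to small GTPases, had 89.9 ± 6.50 and 76.5 ± 11.6 TPM. Of 35 kinases, phosphatases and phospholipases 31 reached 10 CPM. Prkcb, a protein kinase C, led with 618 ± 102 TPM, ahead of Inpp5d, the phosphatase SHIP1 that limits degranulation, at 265 ± 39.7, Prkcd at 187 ± 24.5, Csk, which restrains Src kinases, at 152 ± 16.9 and Ptprc, the phosphatase CD45, at 141 ± 13.4 TPM.

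Among the cytokine and growth factor receptors listed, Il1rl1 for IL-33, beta chains for IL-3 and Kit for SCF were the most abundant. Il1rl1 had TPM from 1569 over a median of 2237 to 2604. Kit (chr5:75735576-75817404) had TPM from 636 over a median of 867 to 931, with the lowest value in male 3 and the highest in male 2. This order may differ in CPM, since TPM in male 3 rest on a smaller nuclear protein-coding share. Csf2rb and Csf2rb2, beta chains for IL-3, had 939 ± 135 and 594 ± 118 TPM, and since the pair are near copies their separate levels are uncertain. Then came Il4ra, the IL-4 receptor, at 402 ± 60.8 TPM, Tgfbr1, a TGF-β receptor, at 348 ± 73.5, Il10ra, the IL-10 receptor, at 77.1 ± 12.7 and Il2rg, the common gamma chain on the X chromosome, at 60.7 ± 3.23 TPM. Of 49 cytokine and growth factor receptors 31 reached 1 CPM and 26 reached 10 CPM, and Axl, Mertk and Tnfrsf1a were among those with 0 counts throughout. The list held 1.19% ± 0.0697 of nuclear protein-coding TPM.

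G protein-coupled receptors were expressed at a lower level. Of 64 listed, 35 reached 1 CPM and 23 reached 10 CPM, and the list held 0.308% ± 0.0110 of nuclear protein-coding TPM. Of all 21614 nuclear protein-coding genes 10707 reached 1 CPM and 8175 reached 10 CPM, so the counts of the list lay near that background. F2r, the thrombin receptor, led with 410 ± 124 TPM, from 301.5 in female 3 to 637 in female 2. Adgre5, the adhesion receptor CD97, followed at 263 ± 36.5 TPM, and Adora3, the adenosine A3 receptor known to promote mast cell degranulation, at 170 ± 24.7 TPM. P2ry14, a receptor for UDP-sugars, Ptger3, a receptor for prostaglandin E2, Gpr171, Lpar6, a receptor for lysophosphatidic acid, and Hrh4, the histamine H4 receptor, had between 60.1 and 75.9 TPM. Mrgprb2, the receptor through which cationic substances and neuropeptides activate mast cells, is named for its role and not for its rank. Its mean was 4.07 ± 2.35 TPM, and its CPM ranged from 3.46 in female 1 to 13.3 in female 3. Ccr7, Cxcr3, F2rl1, Mrgprx1, P2ry12 and Ptger2 had 0 counts in all 6 cultures.

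Other surface proteins were led by inhibitory receptors. Lilrb4a and Lilrb4b, near copies of an inhibitory immunoglobulin-like receptor, had 1850 ± 335 and 1279 ± 133 TPM, and their reads may be shared. Cd34, a sialomucin of progenitors and mast cells, had 321 ± 40.9 TPM, and Cd200r3 and Cd200r4, activating members of the CD200 receptor family, 310 ± 95.3 and 255 ± 46.7 TPM. Of 43 surface immunoreceptors and Toll-like receptors 26 reached 1 CPM, while Clec12b, Tlr8 and Tlr9 had 0 counts. Tlr4, the receptor for lipopolysaccharide, was at 22.9 ± 5.58 TPM and is named for its role. Among 19 integrins, Itga2b, the αIIb chain also known from platelets, led with 612 ± 107 TPM. Itgb7, the β7 chain that homes mast cell progenitors to the gut, had 233 ± 69.7 TPM, and Itgb1, Itga6 and Itgav had 56.0, 30.1 and 19.2 TPM.

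The leading enzymes for leukotriene, prostaglandin and serotonin synthesis were more abundant than the histamine enzyme. Alox5 and Alox5ap, the 5-lipoxygenase and its activating protein that begin leukotriene synthesis, had 599 ± 91.8 and 592 ± 107 TPM. Tbxas1, thromboxane synthase, had 183 ± 27.4 TPM, Hpgds, which makes prostaglandin D2, 158 ± 28.0 TPM, and Lta4h, leukotriene A4 hydrolase, 73.7 ± 27.0 TPM. Of 18 genes of this pathway 10 reached 1 CPM, near the background of all nuclear protein-coding genes. Ltc4s, which makes leukotriene C4, was at 64.9 ± 20.5 TPM, and the cyclooxygenase genes Ptgs1 and Ptgs2 at 19.7 ± 15.8 and 0.226 ± 0.125 TPM. They are named for their role. For the amines, Tph1 was followed by Aldh2 at 459 ± 48.0 TPM, Slc18a2, the transporter that loads amines into granules, at 388 ± 74.6, Ddc, the decarboxylase that completes serotonin synthesis, at 124 ± 24 and Maob, which degrades amines, at 86.3 ± 24 TPM. Hdc, the histidine decarboxylase that makes histamine, had TPM from 3.21 over a median of 4.07 to 6.68 and is named for its role. Hnmt and Aoc1, both of which inactivate histamine, had 0 counts.

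The granule matrix and its membranes were well represented. Besides Srgn, the list for proteoglycan and heparin synthesis was led by Papss2, which makes the sulfate donor, at 320 ± 62.8 TPM. Next came Ndst2, the sulfotransferase that heparin of mast cells requires, at 185 ± 34.8 TPM. Chsy1, a chondroitin synthase, had 152 ± 27.2 TPM and Hs6st2, a heparan sulfotransferase on the X chromosome, 93.2 ± 14.2 TPM. Of 26 genes for proteoglycan and heparin synthesis 25 reached 1 CPM and 23 reached 10 CPM. Among 20 genes for lysosome and granule membrane, Ctsd was followed by Laptm5, a lysosomal membrane protein, at 805 ± 181 TPM, Cd63, the tetraspanin that appears on the surface on degranulation, at 788 ± 158, Cd9, another tetraspanin, at 269 ± 70.6 and Psap, the precursor of saposins, at 161 ± 22.4 TPM.

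Transcription regulators were each expressed at modest levels. The 134 listed held 0.885% ± 0.0551 of nuclear protein-coding TPM, with 115 at a mean of 1 CPM or more, 97 at 10 CPM or more, and Batf3, Cebpe and Pparg at 0 counts. Id2, an inhibitor of basic helix-loop-helix factors, led with 413 ± 89.7 TPM, ahead of Ybx1 at 245 ± 32.3 and Gata2, which mast cells require, at 236 ± 35.7 TPM. Hmgb1, Runx1, Fli1, Zeb2 and Atf4 had between 105 and 203 TPM. Mitf, a regulator of granule genes, and Gata1, which the rule on rank did not name, had 63.6 ± 9.54 and 87.1 ± 15.5 TPM. Gata2 ranged only from 483 over a median of 570 to 586 in CPM, and Fli1, an ETS factor, from 319 over 330 to 341 CPM.

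Secreted factors were led by a chemokine. Ccl2, a monocyte chemokine, had 730 ± 222 TPM, from 479 to 1035, and was followed by Tgfb1 at 103 ± 13.4, Mif at 77.2 ± 12.4, Osm at 68.0 ± 15.2 and Tnfsf8 at 32.5 ± 4.44 TPM. Of 51 cytokine genes 23 reached 1 CPM, and 8 had 0 counts. Of all 21614 nuclear protein-coding genes, 10707 reached a mean of 1 CPM, so the list lay near that background. Il6 and Tnf, which mast cells release on activation, were at 23.9 ± 3.62 and 23.0 ± 4.15 TPM in these untreated cultures and Il13 at 1.71 ± 0.827 TPM, all named for their role. Among proliferation genes Pcna had 75.2 ± 11.9 TPM, ahead of Mcm3, Top2a, Mcm6 and Mcm2 at between 12.9 and 20.2 TPM. All 25 of that list reached 1 CPM, and their summed share of nuclear protein-coding TPM ran from 0.0389% in male 3 to 0.0631% in female 3. Of 16 immediate early genes Ier3 had 360 ± 56.9 TPM, and Junb, Ier2, Jun and Ier5 had between 13.04 and 29.5 TPM. Of 20 interferon-stimulated genes 8 reached 1 CPM, among them Bst2 at 58.5 ± 5.04 TPM and Usp18, Oas1a and Gbp2 at between 5.46 and 10.7 TPM. MHC class II genes were near 0 for H2-Ab1, Cd74 and Ciita (0.981, 0.491 and 0.260 TPM), while H2-DMb1 had 25.4 ± 3.16 and H2-DMa 5.11 ± 1.17 TPM.

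**Figure D3:**
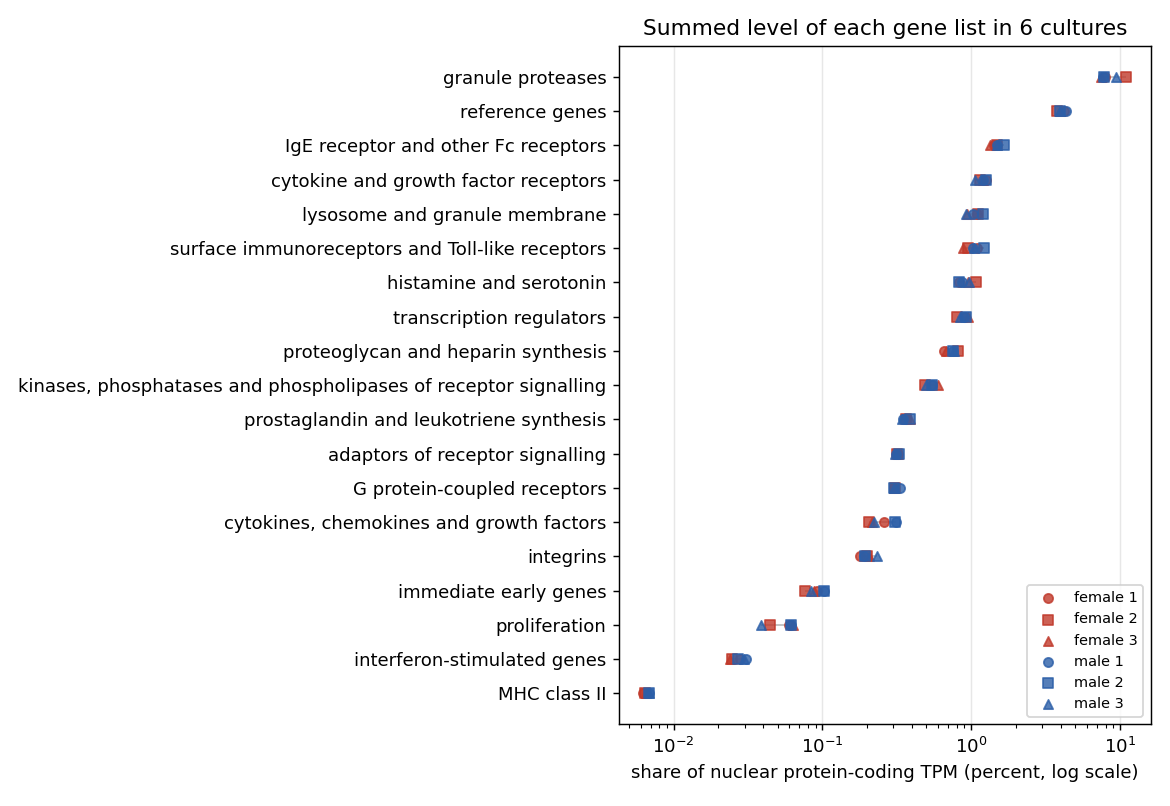
Points give the summed level of each gene list in the 6 cultures as a percentage of nuclear protein-coding TPM (log axis), in order of the mean. Granule proteases lead at 8.54% on average, and MHC class II genes are lowest at 0.00659%.

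Markers of other cells that a peritoneal culture could hold were scarce. The 12 macrophage markers summed to between 5.27 and 38.1 TPM, highest in female 2, and C1qb, Marco and Timd4 had 0 counts. Adgre1, the macrophage marker F4/80, led them with 5.47 ± 6.94 TPM, and its CPM was 45.5 in female 2, 24.7 in male 3 and between 3.31 and 4.27 in the other 4 cultures. Without female 2 its mean was 3.00 TPM. In bulk RNA, few cells of a type and little of its RNA in each cell cannot be told apart. Mcpt8, a protease of basophils, had 4.03 ± 0.856 TPM. Of 4 platelet markers Itga2b alone was abundant, and Gp9, Pf4 and Ppbp were at 0.554, 0.0736 and 0 TPM. Summed markers of B cells, T or NK cells, neutrophils, eosinophils, dendritic cells, mesothelial cells, fibroblasts and erythroid cells stayed under 1 TPM on average. Their leading members, Cd79b, Ncr1, S100a9, Ccr3, Cd209a, Krt19, Dcn and Hbb-bs, had between 0.0110 and 0.649 TPM.

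Most genes varied little between the cultures. Spread was described for the 7916 autosomal protein-coding genes that averaged 10 CPM or more, called well expressed here, as the SD of log2(CPM + 0.1) over the 6 cultures. The median SD was 0.12 on the log2 scale, against 0.05 for the SD that counting alone would give, and the highest culture was a median of 1.26-fold above the lowest. Genes whose highest culture exceeded the lowest by at most 25%, called stable, numbered 3804 (48.1%), and genes at 4-fold or more, called variable, numbered 162 (2.05%). The share of variable genes was 3.37% among genes of 10 to 30 CPM and 0.741% among those of 300 CPM or more. These thresholds describe the 6 cultures and carry no test.

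**Figure D4:**
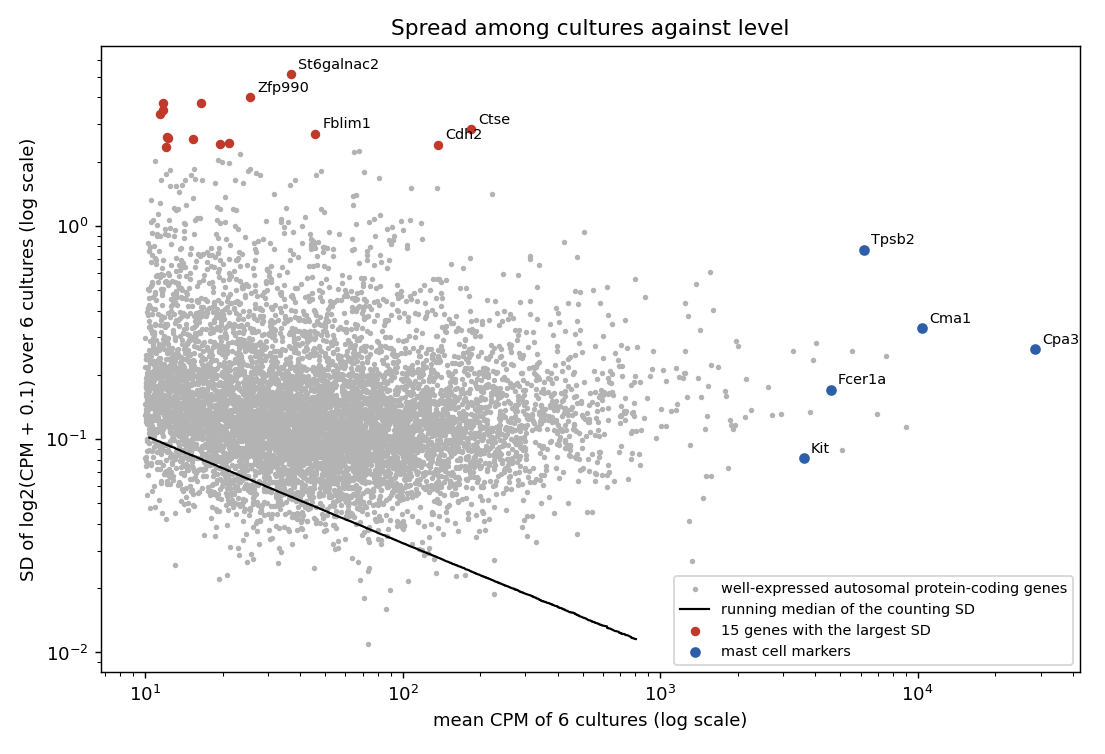
Each point is 1 of 7916 well-expressed autosomal protein-coding genes, with its mean CPM (log axis) against the SD of log2(CPM + 0.1) over the 6 cultures (log axis), and the line is the running median of the SD from counting alone. Most genes lie above the line around an SD of 0.12, the 15 most variable genes lie above 2, and among the markers Kit has the smallest SD and Tpsb2 the largest.

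Among all well-expressed genes, 48.1% were stable and 2.05% variable. Granule proteases had the largest median SD of the functional lists, 0.68, and all 8 that were well expressed had an SD above the median of all genes, with 3 variable and 0 stable. Kit, with a range of 1.17-fold in CPM, stood at percentile 19.1 of the SDs of well-expressed genes, whereas Fcer1a spanned 1.37-fold, Cpa3 1.76-fold, Cma1 1.96-fold and Tpsb2 3.64-fold. Integrins and cytokines had median SDs of 0.49 and 0.35. Kinases, phosphatases and phospholipases had a median SD of 0.11 with 17 of 30 stable, regulators 0.14 with 38 of 92 stable and 5 variable, and adaptors 0.18 with 5 of 19 stable. The 5 variable regulators were Egr1, Klf2, Meis2, Tcf4 and Zeb1, named after their values were seen. Cytokine receptors had a median SD of 0.22 with 3 of 25 variable (Il1r2, Il9r and Igf1r), and G protein-coupled receptors 0.22 with 3 of 21 variable (Ccr1, C3ar1 and Adgre1).

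Several mast cell genes of moderate level changed rank from culture to culture. They were singled out after their values were seen. Mcpt4 had 248, 31.0 and 423 CPM in female 1 to 3 and 373, 155 and 104 CPM in male 1 to 3, so that female 2, the culture with the most Cpa3 and Cma1, had the least Mcpt4. Slc6a4, the serotonin transporter, had 8.89, 172 and 101 CPM in the female cultures and 8.82, 4.88 and 91.4 CPM in the male cultures. It was high in female 2, female 3 and male 3 and low in the other 3, a grouping read from these same values. Mcpt2 was lowest in female 1 at 33.2 CPM and highest in male 1 at 161 CPM. Tpsg1 reached 695 CPM in female 2 and lay between 171 and 304 CPM in the other cultures.

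The 15 most variable genes included several that were present in some cultures and almost absent from others. St6galnac2, a sialyltransferase (chr11:116566129-116585713), had 66.6, 76.3 and 78.2 CPM in female 2, female 3 and male 3, and 0.0456, 0 and 0 CPM in female 1, male 1 and male 2. Zfp990, a zinc finger gene, and Eno1b, an enolase, were high in the same 3 cultures, as was Ctse, the protease cathepsin E, at 458, 327 and 290 CPM against 9.75, 8.77 and 10.7 CPM. The opposite side was taken by Cd300lb, an activating immunoreceptor, with 27.9, 18.7 and 23.4 CPM in female 1, male 1 and male 2 and at most 0.172 CPM in the others. Cdh2, N-cadherin (chr18:16700793-16942381), had 240, 252 and 284 CPM in those 3 cultures and 18.7, 6.02 and 23.9 CPM in female 2, female 3 and male 3. Nkpd1, H4c17, a histone H4 gene, Ccdc8 and Arhgef3, a guanine nucleotide exchange factor, were likewise high in female 1, male 1 and male 2. Map1a, a microtubule protein, was high in female 2, female 3 and male 3. The remaining 4 split the cultures otherwise. Fblim1, a protein of filamin and adhesion sites, was low in female 2 alone, at 0.474 CPM against between 31.4 and 73.9 CPM. Derpc was high in female 3, male 1 and male 2. Stum was highest in female 1 and male 1 and almost absent from male 3, at 0.256 CPM against between 4.01 and 33.6 CPM. Stard13 spread from 0.183 CPM in male 2 to 32.7 CPM in female 3 without a clear break. Estimated counts of St6galnac2, Zfp990, Eno1b, H4c17 and Derpc were fractional in some cultures. Some of their reads may thus be shared with other genes, and their separate levels are uncertain.

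**Figure D5:**
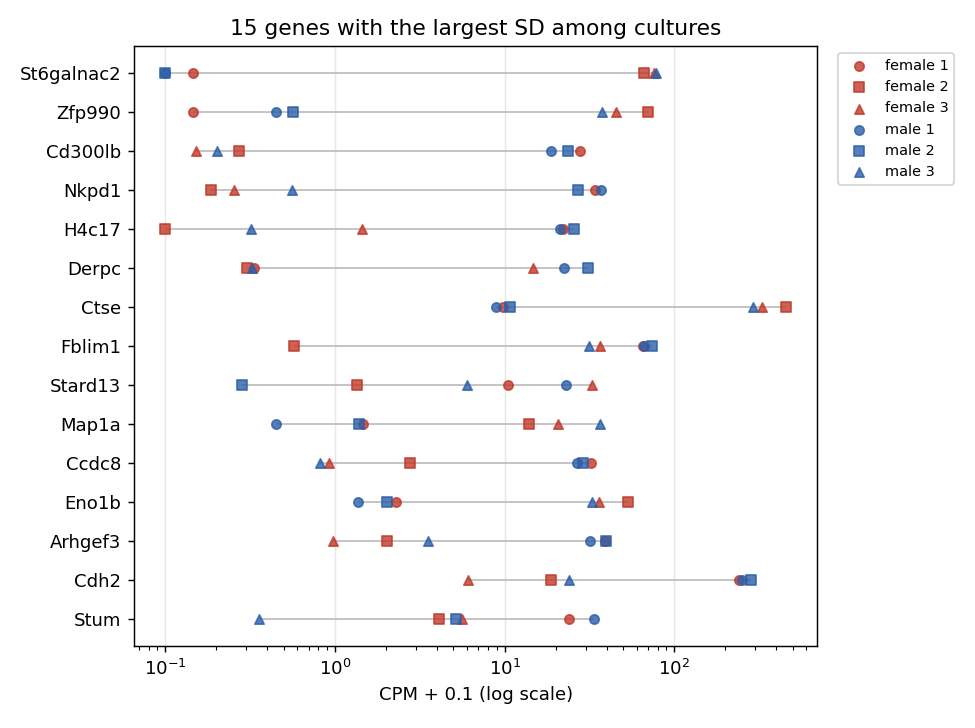
Points give CPM + 0.1 (log axis) in each culture for the 15 genes with the largest SD, from the largest at the top, and grey lines join the lowest and the highest culture. Female 1, male 1 and male 2 lie together, apart from female 2, female 3 and male 3, in 11 of the genes, and female 2 stands alone in Fblim1.

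Over all 162 variable genes, which include those 15, no single split of the cultures held for most. The 3 highest cultures were female 1, male 1 and male 2 in 47 of the 162 (29.0%) and female 2, female 3 and male 3 in 28 (17.3%), while the 3 males were the 3 highest in 10. By the widest gap between neighbouring values, these groups of 3 stood apart in 23 (14.2%) and 17 (10.5%). The widest gap set the lowest culture apart from the other 5 in 55 genes, the highest in 29 and any 3 from the other 3 in 47. Between 2 cultures, female 1, male 1 and male 2 differed from each other by 4-fold or more in 5 to 12 well-expressed genes. Each of them differed from female 2, female 3 and male 3 in 49 to 79 genes, and those 3 differed among themselves in 23 to 38. Over all well-expressed genes the median difference between 2 cultures was 0.11 on the log2 scale among female 1, male 1 and male 2. It was 0.12 between male 3 and male 2, 0.13 between male 3 and female 2 and 0.14 between male 3 and female 3, so male 3 was not nearest to the cultures it was grouped with by the variable genes. The labels name nothing that these groups of cultures share, and their part in the results was not tested. The median over the variable genes of the mean level was 22.1 CPM, and 12 had a mean of 100 CPM or more. In 51 of them every culture had at least 10 CPM, and 5 of them (St6galnac2, Zfp990, Cd300lb, Nkpd1 and H4c17) had fewer than 3 counts in at least 1 culture. Another variable gene lay within 1 Mb of 39 of the 162 (24.1%), and a variable gene lay as near to 19.9% of all well-expressed genes. Neighbours were not always high in the same cultures. Of the receptor genes Pira2, Pira12 and Lilra6, side by side on chromosome 7, Pira2 was high in female 1, male 1 and male 2. The other 2 were high in female 2, female 3 and male 3. Estimated counts of all 3 were fractional, so reads may be shared among these similar genes and their separate levels are uncertain. Whether this shaped the opposite patterns was not tested.

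The least variable genes came from many processes of the cell. Glrx3, a glutaredoxin of iron handling (chr7:137039283-137073907), had CPM from 72.6 over a median of 73.0 to 73.9. Its SD of 0.01 on the log2 scale was under the 0.04 that counting alone gives, as were the SDs of 408 of the 7916 genes, so the order among such genes is not resolved at this depth. With counts scaled by library totals, 3 of the 50 least variable genes kept a place among the 50. The next were Vps18 and Ist1 of endosomal sorting, Senp5, a SUMO protease, BC005537, Marf1, Tars1, the threonyl-tRNA synthetase, Stx18, a syntaxin, Morf4l1 of histone acetyltransferase complexes, Frg1, Ankfy1, Ralgapa1, Skic2 of RNA decay, Zcchc7 and Hps3, a protein of lysosome-related organelles. Their highest culture was at most 1.05-fold the lowest. Genes often used as references varied about as much as other genes. Of the 25 listed, 23 were well expressed and autosomal, with a median SD of 0.12, the same as over all well-expressed genes, and 11 were stable, near the background of 48.1%. Gapdh spanned 1.12-fold and Ppia, Ldha and Tbp 1.17-fold in CPM, whereas B2m, the light chain of MHC class I, spanned 3.28-fold, from 443 CPM in female 3 over a median of 696 to 1454 in male 1. Polr2a spanned 1.80-fold, Tfrc, the transferrin receptor, 1.75-fold and Rpl13a 1.70-fold.

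The cultures of female and male mice differed in few genes. Of 13696 genes tested with limma on log2(CPM + 0.1), 6 (0.0438%) differed at an adjusted p under 0.05, 2 higher in females and 4 higher in males. Xist, the RNA that silences an X chromosome, had 2038, 1440 and 1814 CPM in the female cultures and at most 0.852 CPM in the male ones (limma, adjusted p = 0.00045). The Y-linked genes Eif2s3y, Uty, Kdm5d and Ddx3y had between 62.7 and 120 CPM in male cultures and at most 1 count in a female culture, with the largest adjusted p of the 4 at 1.2e-05. Each library thus carried the sex that its label gives. Kdm6a, a histone demethylase gene on the X chromosome that escapes silencing, had 139, 137 and 141 CPM in the female cultures and 79.2, 79.7 and 71.2 CPM in the male ones. The groups did not overlap, and the female level was higher by 0.86 ± 0.07 (SE) on the log2 scale (limma, adjusted p = 0.0155). Leaving out any 1 of the 6 cultures ended the call of Kdm6a, with limma adjusted p from 0.0612 to 0.140, and under the other settings tried its adjusted p ran from 0.0142 to 1.00. Of 13219 autosomal genes limma called 0 (0%). At an unadjusted p under 0.05 limma had 430 of them (3.25%), and the smallest adjusted p of an autosomal gene was 0.245. Leaving out female 1, male 2 or male 3 gave 1 autosomal call each. With 3 cultures on each side, small differences between the sexes may not have been detectable.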

How the data were processed

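RNA of 6 cultures of primary WT PMCs (3 female, 3 male) was used, each mapped to its label. The submitters' processing notes name Trim Galore 0.6.7, STAR 2.7.9a, Salmon 1.5.2 and the build GRCm39. For each gene the authors deposited an estimated count, not normalized, and a TPM value, scaled for length and library size. The annotation release behind them is not given in the sources used here. The deposited tables had been rewritten in part by a spreadsheet program, in 3.37% of gene count cells and 20.8% of TPM cells. These cells were restored to numbers, and counts placed the point in 5301 TPM cells. For 381 date cells with an ambiguous reading, deposited estimated counts of transcripts were consulted unless these were ambiguous too. The second reading was taken in 6, and the others kept the first. In genes averaging at least 10 counts, 163 TPM cells of the series lay over 3-fold off their gene's median ratio of counts to TPM. Gene coordinates come from GENCODE M39 (98.9% of 55359 genes matched).

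CPM were computed from the counts with TMM-adjusted library sizes. As the deposited count tables held cells rewritten as text, a model for log values was used in place of a count model. Female and male cultures were compared with limma 3.58.1 in R 4.3.3 on log2(CPM + 0.1), allowing the variance to follow the mean and adjusting by Benjamini-Hochberg, over genes with a count of about 10 in at least 3 libraries and 15 in total. The fit was also run on simulated data with the same spread in every gene. Spread in these data differed between genes, so that run cannot decide how the fit performs here. Levels and spread carry no test. Counting SD is the SD that Poisson counts alone would give. Libraries held 15918757 to 24180226 counts, and no pair of them agreed within sampling noise.

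Genes named in the text are the 5 markers, the 20 most abundant genes, the 5 (or 8, for cytokine receptors, G protein-coupled receptors and regulators) most abundant members of each list, the 15 most and 15 least variable genes, the genes called between sexes, the leading marker of each other cell type and the reference genes. Others were named after their values were seen, for their role, or because they had 0 counts. The members and lists were chosen with earlier results of these data known. Scaling, offset, filter, values, model and samples were varied and each culture was left out in turn. All else was computed in Python 3.11.15 (numpy 2.4.6, pandas 2.3.3, matplotlib 3.10.9). Cell lines, flow cytometry and functional assays were not analysed here. Some genes that the rule names are not reported here.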

Additional observations from a re-analysis of the deposited data

Results flagged for a closer look

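For 220 values (178 named genes, and the levels of RNA classes, gene lists and the 10 leading genes), it was asked whether 1 culture lay apart from the other 5 by Dixon's criterion, which chance meets about 1 time in 20. It did so in 21 (9.55%), and no reason was tested for any of them. The genes among them were 9 of 178, near the rate chance gives and near the 5.84% of all 7916 well-expressed genes that met the criterion, and the others were sums or shares, which overlap in their genes. Male 3 had 861 CPM of Itgb7, the β7 integrin, against 338 to 447 CPM in the other cultures, and 38.0 CPM of Mcm6, a replication helicase subunit, against 47.2 to 51.9 CPM. Female 2 had 331 CPM of the adaptor Lat against 219 to 257, 247 CPM of Vav1 against 187 to 193, and 34.8 CPM of H2-DMb1 against 29.4 to 30.8. At or near single counts lay Cd209a and S100a9 in male 3 (0.0512 CPM each), Cd79b in female 3 (0.154 CPM) and Hbb-bs in male 1 (0.1504 CPM).

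Among sums, male 3 had 29.5% of its TPM in 7SL RNA and low summed TPM of cytokine receptors (4290), transcription regulators (3358) and kinases, phosphatases and phospholipases (1992). The share of nuclear protein-coding TPM was lowest of all in male 3, and as a share of it these lists were at 1.07%, 0.834% and 0.495%. By this share male 3 was lowest only for cytokine receptors. Female 2 was lowest for regulators (0.807%) and for kinases, phosphatases and phospholipases (0.486%). Female 2 had high summed TPM of the mast cell markers (65244), of the granule proteases (60419) and of the histamine and serotonin genes (5926), and 9.85% of its TPM in the 10 leading genes. Female 2 also had the largest share of nuclear protein-coding TPM, 54.8%. As a share of it these 3 lists were at 11.9%, 11.0% and 1.08% in female 2, with male 3 next at 10.4%, 9.37% and 0.972%. Female 3 had 1.06% of its TPM in RNAs of no named class. The erythroid and fibroblast markers were highest in male 1 (0.899 and 0.567 TPM in sum) and the B cell markers in female 3 (0.212 TPM).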

How the results depend on the processing

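The count of genes called between the sexes was 5 or 6 under every scaling, offset, filter, value and model tried and from 5 to 6 when 1 culture was left out. Kdm6a was the gene lost, in 10 of 96 fits of the 6 genes, and the other 5 genes kept their calls in all of them. The count of autosomal calls was 0 under all of these settings and from 0 to 1 when 1 culture was left out (Rad51b without female 1, Gm20431 without male 2 and Dnah7a without male 3). With the replicate number of the labels as a block there were 5 calls. The correlations of deviations between same-numbered female and male cultures were 0.525, -0.311 and 0.290, and not every culture correlated best with its own number. The deviations are from the mean of each sex and so depend on each other. They cannot decide whether the numbers pair the cultures.

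The count of variable genes was 249 at a mean of at least 5 CPM, 88 at 20 CPM and 98 with deposited TPM, and from 135 to 151 with 1 culture left out. Stable genes numbered 339 with deposited TPM. The median SD was 0.20 with deposited TPM and 0.15 with TPM rescaled to nuclear protein-coding genes, an alternative chosen after seeing the data. Of the 50 most variable genes, 25 remained at 20 CPM and 21 with deposited TPM. Of the 50 least variable, 3 remained with total counts, 1 with deposited TPM, 26 within sexes, 0 with rescaled TPM and from 10 to 31 with 1 culture left out. The order of the least variable genes is thus not fixed by these data. The share of the 10 leading genes was 14.9% over nuclear protein-coding TPM and from 6.85% to 7.56% of all TPM with 1 culture left out. Leaving out 1 culture moved the mean TPM of 5 named genes by over 1.5-fold, Adgre1 to 3.00, Map1a to 0.786, Stum to 1.64, Zfp990 to 5.72 and Stard13 to 2.04. The cause was not tested for any of these changes. Depth limits what can be said of genes at 0 counts, which may hold up to 0.183 CPM.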

Other observations

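Among transcripts outside the messenger RNA of named genes, mitochondrial RNA was highest in male 1. The ribosomal RNA mt-Rnr2 had 30221 TPM there and between 13320 and 21377 TPM in the other 5 cultures, and mt-Co1, a subunit of cytochrome oxidase, had 13251 TPM against 7238 to 9999 TPM. Rpph1, the RNA of RNase P, was lowest in female 3 at 7925 TPM and next in female 2 at 12684 TPM, with 20505 to 29388 TPM in the other 4. Malat1, a long nuclear RNA, lay between 4085 and 5837 TPM. The pseudogenes Gm28437 and Gm28661 resemble mitochondrial sequence, and how reads were split between them and the mitochondrial genes is uncertain.

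Genes of lipid synthesis were among the variable ones. Scd1, a stearoyl-CoA desaturase, had 163, 4.45 and 53.0 CPM in female 1 to 3 and 36.0, 21.8 and 10.9 CPM in male 1 to 3. Its neighbour Scd2 had 1072, 210 and 791 CPM in the female cultures and 411, 291 and 264 CPM in the male ones, and Fads2, a fatty acid desaturase, ran from 5.47 CPM in female 2 to 139 CPM in female 1. All 3 were highest in female 1 and lowest in female 2. Elovl6, a fatty acid elongase, had 81.7 CPM in female 1 and 5.63 CPM in male 3. These genes were picked after their values were seen, and no test was made.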
